A study of Mus musculus with 8 samples.

Results

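The peptide genes described here are 10 neuropeptide precursors made mainly or partly in the hypothalamus. They comprise the feeding peptides Pomc, Cartpt, Agrp, Npy, Hcrt and Pmch, the releasing and modulating peptides Trh and Gal, and the neurohypophysial hormones Oxt and Avp. They were chosen by name, with no threshold on their values, and each matched 1 Ensembl identifier among the 22430 genes listed. RNA was measured in brains of 8 male C57Bl/6JRj mice, 4 aged 6 months (6m) and 4 aged 24 months (24m), with no treatment or genetic change named for either age and 1 library per animal. The tissue is called a brain hemisphere in one label and whole brain in another, so these peptides were read from a sample in which the hypothalamus is a small portion. Polyadenylated RNA was selected, and directional libraries were sequenced. All 10 genes passed the filter on low counts, and 16730 genes were tested in all.

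Hypothalamic peptides are cut from larger precursors and released by small, anatomically distinct groups of neurons. In the arcuate nucleus, neurons that make Pomc and Cartpt restrain feeding, and neurons that make Agrp and Npy drive it, with Agrp protein acting as an antagonist at the melanocortin receptors that Pomc products activate. The lateral hypothalamus holds separate neurons for Hcrt (the orexin precursor, which sustains wakefulness) and Pmch (melanin-concentrating hormone), and large neurons of the paraventricular and supraoptic nuclei send Oxt and Avp products to the posterior pituitary. Npy, Cartpt, Trh and Gal are also made by neurons elsewhere in the brain, Npy in many cortical interneurons.

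The precursors Oxt and Avp arose by duplication of an ancestral gene and lie tail to tail on chromosome 2. In GRCm39, Oxt spans chr2:130418091-130418974 on the plus strand and Avp spans chr2:130422540-130424640 on the minus strand, with 3565 bases between them. The coding bases of the 9-residue hormones are shown because reads of both genes had to be told apart for the result on their ratio. Capitals mark the bases that differ between the genes, and both stretches were read from GENCODE transcripts of GRCm39.
Oxt: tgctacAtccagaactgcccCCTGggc
Avp: tgctacTtccagaactgcccAAGAggc
Of these 27 bases 5 differed, at A7T, C21A, C22A, T23G and G24A (the Oxt base first, counted from 1 at the first base of the hormone). They changed the residue in 2 of 9 codons. The longest identical stretch of the coding sequences was 127 bases long, bases 119 to 245 of Oxt and 131 to 257 of Avp. It is shown because a short read inside it would match both genes.
Shared Oxt and Avp stretch: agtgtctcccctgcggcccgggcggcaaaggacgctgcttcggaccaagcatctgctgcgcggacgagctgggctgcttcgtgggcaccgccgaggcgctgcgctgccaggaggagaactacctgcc
Windows of 100 bases found in both transcripts made up 6.36% of those in Oxt and 4.35% of those in Avp. No window longer than 127 bases was shared.

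Transcripts of 8 of the 10 peptides were lower in 24m brains, at an adjusted p of at most 0.05 and |log2FC| of at least 0.58 in edgeR's quasi-likelihood test, and none was higher. Across all genes tested, 18.3% were called lower and 25.3% higher. The 8 were Cartpt, Gal, Hcrt, Oxt, Pmch, Npy, Pomc and Trh, in order of log2FC from -1.89 to -0.67, and the median over the 10 was -1.09 against -0.00 over all genes. With a trend over gene length removed, 2 of the 10 were called lower, and Npy, Hcrt, Pmch, Oxt, Pomc and Trh were no longer called. For 6 of them, Cartpt, Hcrt, Pmch, Npy, Gal and Oxt, every 24m library lay below every 6m library, which held for 26.8% of all genes tested. Agrp and Avp were not called. In RNA of a whole tissue, fewer cells that make a peptide and less RNA per cell cannot be told apart.

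**Figure D1:**
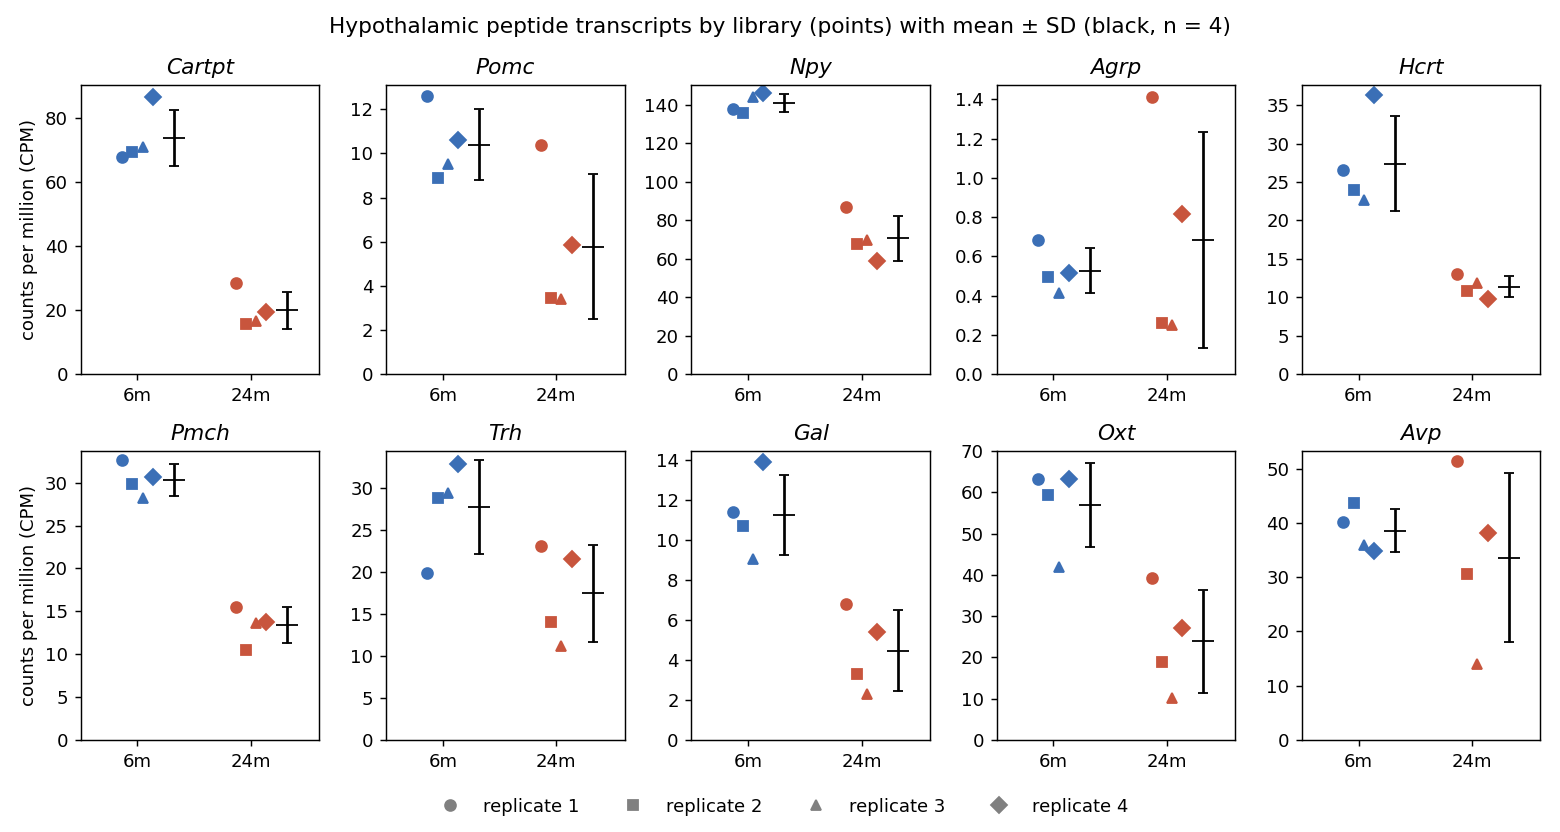
Level of each peptide transcript (counts per 1000000, CPM, linear axis from 0) in the 4 libraries of 6m and the 4 of 24m, with a symbol for each replicate number and the mean ± SD in black. The ages are apart for Cartpt, Npy, Hcrt, Pmch, Gal and Oxt, and 24m replicate 1 (circle) is the highest 24m library in all 10 panels.

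Cartpt had the largest change of the 10. It encodes the cocaine- and amphetamine-regulated transcript peptide and lies on the minus strand at chr13:100034990-100047006 (GRCm39, as for all gene positions here). Its levels at 6m were 67.6, 69.4, 70.8 and 86.6 CPM (counts per 1000000, with library totals scaled by the trimmed mean of M-values, TMM), and at 24m they were 28.3, 15.5, 16.7 and 19.3 CPM, in replicate order. The lowest 6m library was thus well above the highest 24m library. Means were 73.6 ± 8.78 and 19.9 ± 5.78 CPM (SD, n = 4), a 3.69-fold lower level, with a log2FC of -1.89 ± 0.19 (SE) and an edgeR adjusted p of 6.49e-05. Cartpt stayed called in all 20 alternative settings that gave it a value, with log2FC between -2.09 and -1.52.

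Pomc, the precursor of the melanocortins and of beta-endorphin (chr12:4004944-4010642, plus strand), was lower by a smaller and less certain margin. The 6m libraries held 12.6, 8.9, 9.52 and 10.6 CPM and the 24m libraries 10.4, 3.46, 3.4 and 5.87 CPM. Only 24m replicate 1 lay within the range of the 6m libraries, and replicates 2 and 3 were the lowest of all. The log2FC was -0.84 ± 0.33 with an edgeR adjusted p of 0.0487. Without 24m replicate 1 it was -1.28 (adjusted p = 0.000223), without 24m replicate 2 or without replicate 3 it was -0.66 (adjusted p = 0.116 for each), and the call was lost in 12 of 20 alternative settings.

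Npy was the most abundant of the 10 by count and had the tightest 6m levels. The gene (chr6:49799026-49806489, plus strand) gave 138, 136, 144 and 146 CPM at 6m and 86.8, 67.7, 69.7 and 58.6 CPM at 24m. The ages did not overlap. The mean fell from 141 ± 4.77 to 70.7 ± 11.8 CPM (SD, n = 4), with a log2FC of -0.99 ± 0.11 and an edgeR adjusted p of 0.000124.

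Agrp, the agouti-related peptide, was the rarest, with 25 to 45 reads per library at 6m and 21 to 146 at 24m. Its levels were 0.686, 0.495, 0.415 and 0.514 CPM at 6m and 1.41, 0.262, 0.252 and 0.814 CPM at 24m. The 24m libraries therefore fell on both sides of the 6m range, replicates 1 and 4 above it and replicates 2 and 3 below it. The log2FC was 0.39 ± 0.52 (edgeR adjusted p = 0.529), and it was -0.23 without 24m replicate 1. The annotated span of Agrp, chr8:106293326-106364065 on the minus strand, overlapped 7 other genes. Of its exonic bases 748 lay over Gm38250 and 154 over Ctcf, both on the opposite strand, and 154 over Gm5914 on its own strand. Whether the counting used the strand of the read is not given in the sources used here, so reads of such neighbours cannot be told apart from reads of Agrp where they share bases.

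Hcrt and Pmch, the markers of the separate orexin and melanin-concentrating hormone neurons, were lower to a similar extent. Hcrt (chr11:100651895-100653762, minus strand) held 26.5, 23.9, 22.7 and 36.3 CPM at 6m and 13, 10.8, 11.8 and 9.79 CPM at 24m. Pmch (chr10:87926933-87928237, plus strand) held 32.6, 29.8, 28.2 and 30.7 CPM at 6m and 15.5, 10.5, 13.7 and 13.8 CPM at 24m. For both genes each 24m library was below each 6m library, and the spread among 24m libraries was small beside the gap. The log2FC was -1.27 ± 0.16 for Hcrt (edgeR adjusted p = 0.000202) and -1.18 ± 0.12 for Pmch (adjusted p = 7.74e-05). All 750 exonic bases of Pmch also lay over Parpbp on the opposite strand, and 275 bases of Hcrt lay over the noncoding gene Gm73622 on the opposite strand.

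Trh, the precursor of thyrotropin-releasing hormone (chr6:92219021-92221631, minus strand), changed least among the genes called. Of its exonic bases 379 lay over the noncoding gene Gm67229 on the opposite strand. Its 6m libraries held 19.8, 28.8, 29.4 and 32.8 CPM and its 24m libraries 23, 14, 11.2 and 21.5 CPM. The ages overlapped, since 6m replicate 1 was lower than 24m replicates 1 and 4. The log2FC was -0.67 ± 0.24 (edgeR adjusted p = 0.0329). The call was lost in 9 of 20 alternative settings, among them leaving out 24m replicate 2 (adjusted p = 0.0881) or replicate 3 (adjusted p = 0.0733), or any of 6m replicates 2, 3 and 4 (0.0658, 0.0706 and 0.0918 in turn).

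Gal, the galanin precursor (chr19:3459912-3464881, minus strand), held 11.4, 10.7, 9.06 and 13.9 CPM at 6m and 6.8, 3.33, 2.31 and 5.42 CPM at 24m. Relative to the mean, the 24m libraries differed among themselves by more than the 6m libraries did (coefficient of variation 45.4% against 17.8%). In CPM the SD was alike (2.02 and 2.01). Of the 24m libraries replicate 1 was at the top and replicate 3 at the bottom, and none reached the 6m range. The mean was 2.52-fold lower at 24m, with a log2FC of -1.33 ± 0.30 and an edgeR adjusted p of 0.00383.

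The neurohypophysial hormones did not move alike. Oxt, the oxytocin precursor, held 63.3, 59.4, 41.8 and 63.2 CPM at 6m and 39.3, 18.9, 10.2 and 27.1 CPM at 24m. All 24m libraries were below all 6m libraries, although 24m replicate 1 was close to 6m replicate 3. The log2FC was -1.25 ± 0.34 (edgeR adjusted p = 0.00988). Avp, the vasopressin precursor, held 40.1, 43.6, 35.9 and 34.8 CPM at 6m and 51.4, 30.5, 14.1 and 38.2 CPM at 24m. Its 24m libraries ran from far below to above the 6m range, and the log2FC was -0.20 ± 0.31 (edgeR adjusted p = 0.586). It was 0.05 without 24m replicate 3 and -0.47 (adjusted p = 0.121) without 24m replicate 1.

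**Figure D2:**
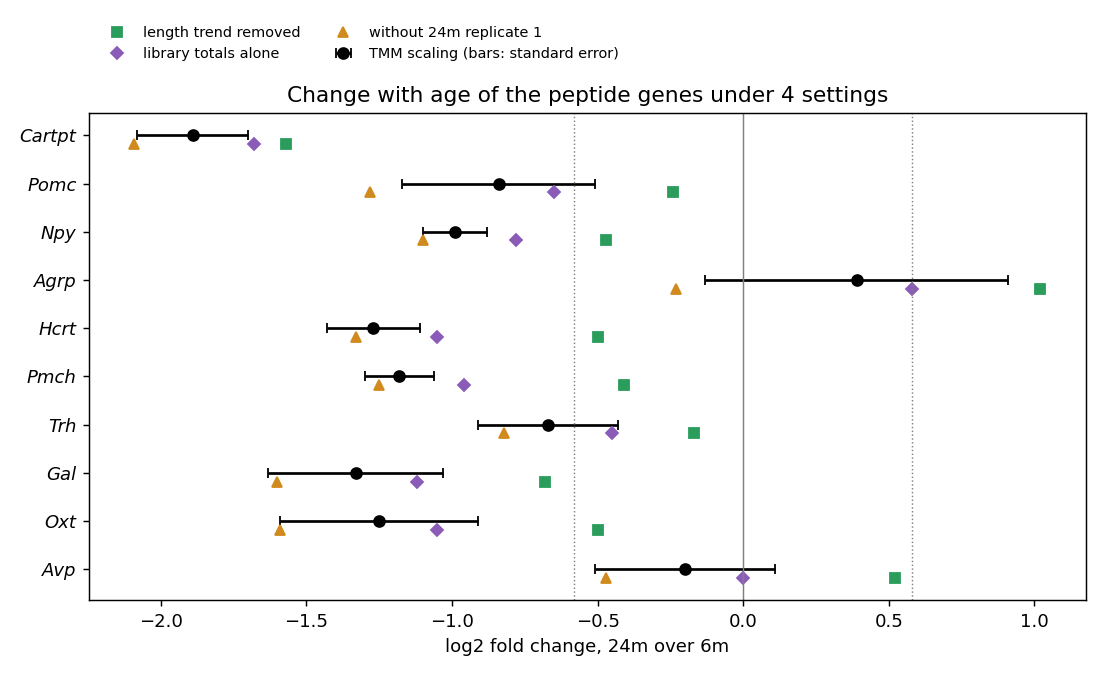
Log2 fold change of each peptide gene, 24m over 6m, with TMM scaling (black, bars of 1 SE) and under 3 other settings, with dotted lines at the fold-change threshold of 0.58 in either direction. With the length trend removed (squares), Cartpt (-1.57) and Gal (-0.68) are the genes that stay past the lower line.

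These precursors are short genes. Their exonic lengths ran from 539 bases for Oxt to 2677 for Cartpt, with a median of 1181, and all 10 were below the median of 5768 bases over the tested genes. Across genes, which are not independent replicates, log2 length and log2FC had a correlation of 0.38. When a smoothed trend over exonic length was removed from each library, the median of the 10 moved from -1.09 to -0.44 and 2 of them, Cartpt (log2FC -1.57) and Gal (-0.68), were still called lower, where 17.2% of all genes were. In that setting Npy (-0.47), Hcrt (-0.50) and Pmch (-0.41) kept edgeR adjusted p-values of 0.000413, 0.0108 and 0.0177 below the fold-change threshold, while Oxt (-0.50, adjusted p = 0.145), Pomc (-0.24, 0.452) and Trh (-0.17, 0.541) did not. Agrp was then at 1.02 (adjusted p = 0.0734) and Avp at 0.52 (0.121). With library totals as the only scaling, the median of all genes was 0.21 and that of the 10 peptides -0.87, and Pomc and Trh were no longer called.

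Ratios between 2 transcripts in the same library do not depend on how libraries are scaled, and 5 were compared, each with an exact two-sided permutation test of 4 against 4 libraries whose smallest p is 0.0286. The log2 ratio of Oxt to Avp was 0.66, 0.44, 0.22 and 0.86 in the 6m libraries and -0.39, -0.69, -0.47 and -0.49 in the 24m libraries. Oxt reads thus exceeded Avp reads in every 6m library, and the reverse held in every 24m library. The means were 0.55 ± 0.28 and -0.51 ± 0.13 (SD, n = 4). They differed by -1.06 (exact permutation p = 0.0286, 0.0476 after Benjamini-Hochberg adjustment over the 5 ratios). Leaving out any 1 library kept the difference between -1.17 and -0.95. With the length trend removed, the log2FC was -0.50 for Oxt and 0.52 for Avp, and neither passed the edgeR test (adjusted p = 0.145 and 0.121).

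The log2 ratio of Agrp to Pomc, which sets the orexigenic antagonist against the melanocortin precursor, was -4.20, -4.17, -4.52 and -4.36 at 6m and -2.89, -3.72, -3.75 and -2.85 at 24m. All 24m libraries were above all 6m libraries, the ones with low levels of both genes included. The difference was 1.01 (exact permutation p = 0.0286, adjusted 0.0476), with at most 45 Agrp reads in a 6m library. Without 6m replicate 1, 3 or 4 the exact permutation p was 0.0571, 0.0857 and 0.0571 in turn. The log2 ratio of Pomc to Cartpt was also higher at 24m in every library, with a range of -3.03 to -2.42 at 6m and -2.29 to -1.44 at 24m, a difference of 0.93 (exact permutation p = 0.0286, adjusted 0.0476). The exact permutation p was 0.0571 without any 1 of 6m replicates 2, 3 and 4 or 24m replicates 1 and 4. Agrp to Npy differed by 1.02, but 24m replicates 2 and 3 lay within the 6m range and the exact permutation p was 0.2 (adjusted 0.25). The difference was 0.65 without 24m replicate 1 (exact permutation p = 0.371). Hcrt to Pmch differed by -0.06 (exact permutation p = 0.714), from a mean of -0.17 ± 0.28 to one of -0.23 ± 0.22.

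**Figure D3:**
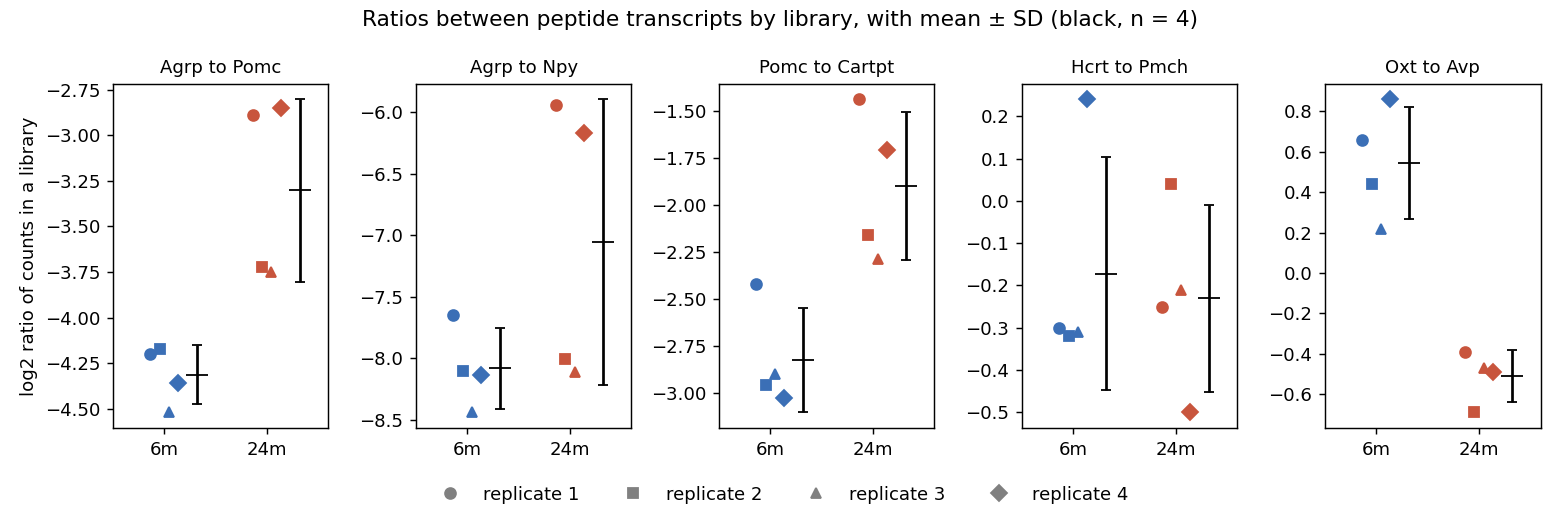
Log2 ratio of the counts of 2 peptide transcripts in each library, with the mean ± SD of 4 libraries in black and a separate scale in each panel. The ages do not overlap for Agrp to Pomc, Pomc to Cartpt and Oxt to Avp, and they overlap for Agrp to Npy and Hcrt to Pmch.

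Levels were set on a common scale as CPM per kilobase of the canonical transcript. At 6m the order was Npy (249 ± 8.42, SD), Oxt (106 ± 18.9), Cartpt (59.4 ± 7.08), Avp (52 ± 5.44), Hcrt (46.3 ± 10.5), Pmch (40.4 ± 2.46), Trh (19.7 ± 3.94), Gal (14.3 ± 2.55), Pomc (10.3 ± 1.63) and Agrp (0.678 ± 0.147). Ranges of libraries overlapped between each pair of neighbours from Cartpt to Pmch and from Trh to Pomc, so these steps in the order are not resolved. At 24m Npy was still first at 125 ± 20.8, followed by Avp (45.2 ± 21) and Oxt (44.3 ± 23), whose ranges overlapped almost wholly, and Cartpt was sixth at 16.1 ± 4.66, with a range of 12.5 to 22.8 that overlapped those of Hcrt (16.6 to 22.1) and Pmch (14 to 20.7). Agrp was last at both ages. Per kilobase of all annotated exons, Oxt was first at both ages, Cartpt was sixth at 6m and seventh at 24m, and Npy was second at 6m, since Npy has exons that its canonical transcript does not use.

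The 24m libraries differed from each other more than the 6m libraries for most of the 10 genes. The coefficient of variation over 4 libraries was 57% at 24m against 15.7% at 6m for Pomc, 80.4% against 21.6% for Agrp, 52% against 17.9% for Oxt and 46.5% against 10.5% for Avp. It was lower at 24m for Hcrt alone (12.3% against 22.7%). Over all tested genes 24m replicate 1 also stood apart, with a chi-square per degree of freedom of 181, 215 and 424 against the other 24m libraries, which gave 13 to 61.4 among themselves. Among the 10 peptides, 24m replicate 1 had the highest 24m level of all 10 genes, and 24m replicate 3 had the lowest of 6. The shares of all tested genes with these extremes were not counted, so the extremes cannot be called particular to the peptides. The mean deviation of the 10 from their 24m mean was 0.65, -0.30, -0.53 and 0.18 on the log2 scale for replicates 1 to 4, and in the 6m libraries it lay between -0.15 and 0.14.

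**Figure D4:**
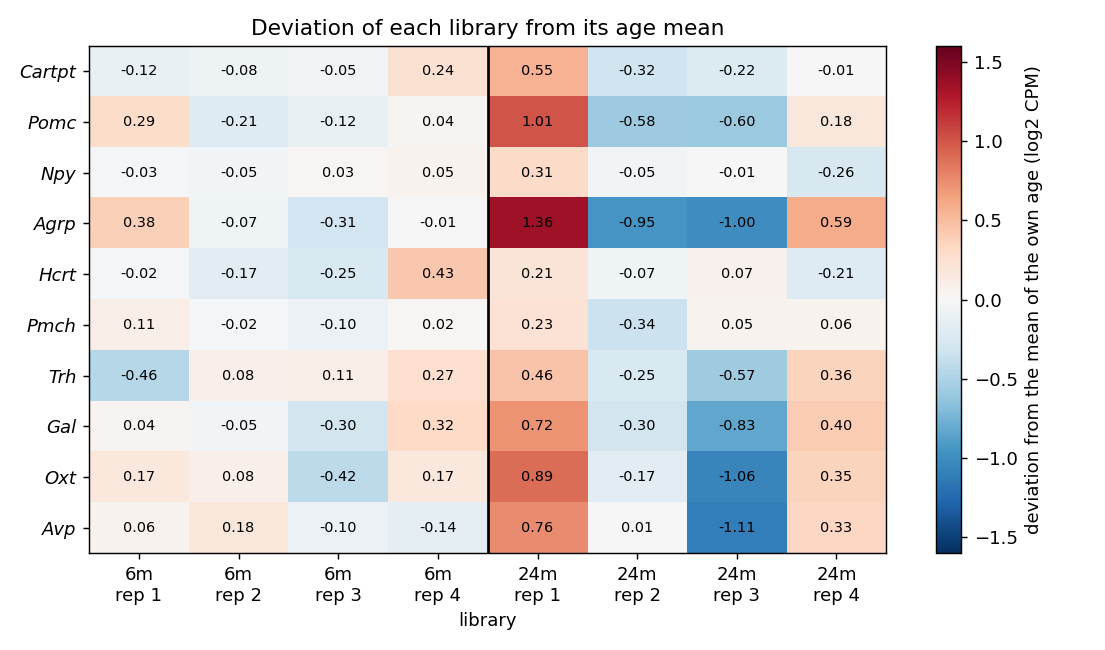
Deviation of each library from the mean of its own age for each peptide gene (log2 CPM, red above and blue below), printed in each cell. The column of 24m replicate 1 is positive for all 10 genes, up to 1.36 for Agrp, and Pomc, Agrp, Trh, Gal, Oxt and Avp share the sign of the deviation in 24m replicates 1, 3 and 4.

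After the age means were removed, deviations of some peptides ran together over the 8 libraries. These correlations are descriptions over few points that share the libraries and their scaling. Pearson's r was 0.97 for Pomc with Agrp, 0.97 for Gal with Oxt and 0.94 for Oxt with Avp, but 0.18 for Agrp with Hcrt, 0.35 for Agrp with Npy and -0.07 for Hcrt with Avp. Among 13932 genes whose average reached 1 CPM, the 3 genes most like each peptide were as follows, with r for the first and the last. Pomc was followed by Cops3, Apobec1 and Lias (0.987 to 0.971), Agrp by Faf1, Pomc and Acat3 (0.978 to 0.968), and Cartpt by Sf3a3, Cript and Med8 (0.974 to 0.966). Hcrt was followed by Atg9b, Carns1 and CK137956 (0.994 to 0.987), Pmch by Nmnat3, Hjv and Zfp966 (0.949 to 0.912), and Npy by B4galt2, Camk1 and H2-T23 (0.997 to 0.993). For Trh they were Th, Slc9b2 and Prcp (0.974 to 0.933), for Gal Zc2hc1c, Oxt and Tmem62 (0.977 to 0.957), for Oxt Abraxas1, Gal and Faf1 (0.971 to 0.954), and for Avp Oxt, Ddb2 and Gm16440 (0.938 to 0.916). Another of the 10 peptides was thus listed for Agrp, Gal, Oxt and Avp. Agrp, below 1 CPM on average, was no candidate for Pomc, although their r of 0.973 exceeds that of Lias.

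Transcription factors that mark hypothalamic nuclei differed in how they varied between libraries. Of 13 such genes 12 were tested, 1 was called higher (Tbx3, log2FC 1.10 ± 0.27, edgeR adjusted p = 0.00614) and none lower, against 25.3% and 18.3% of all genes. The median of the 12 factors was -0.02. Their summed level was 7.47 to 10.6 CPM at 6m and 9.84, 7.6, 7.08 and 12.6 CPM in 24m replicates 1 to 4. Nr5a1, a marker of the ventromedial nucleus, had 27, 14, 11 and 11 reads at 6m and 66, 8, 2 and 64 at 24m, and Six6 had 4, 9, 7 and 5 reads at 6m and 25, 2, 2 and 16 at 24m. Both were thus high in 24m replicates 1 and 4 and low in replicates 2 and 3, as Agrp was. They were singled out after their values were seen and had the largest coefficients of variation at 24m among the 12 tested (97.3% and 93.7%). In CPM, 10 of the 12 factors had replicates 1 and 4 above replicates 2 and 3, but by very unequal margins. The share of all tested genes with this order was not counted, so it cannot be called particular to these factors. Nkx2-1 held 2.34, 1.95, 2.33 and 2.37 CPM at 24m, where replicates 1 and 3 hardly differed, and Bsx held 0.608, 0.312, 0.12 and 0.367 CPM. Otp (1.62, 1.86, 1.56 and 3.35 CPM) and Tbx3 (0.473, 0.686, 0.6 and 0.86 CPM) were highest in replicate 4 but not high in replicate 1. Whether the libraries held unequal amounts of hypothalamus was not tested. When 24m replicate 1 was left out, 3 of the 12 factors were called lower at 24m, where 21.9% of all genes were, and the 10 peptides had a median log2FC of -1.26.

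Markers of the anterior pituitary, where Pomc is also made, were scarce, and Gh was uneven between libraries. It had 24, 277, 29 and 146 reads at 6m and 25, 0, 25 and 0 at 24m. Of 9 markers 1 was left out because its symbol has several identifiers, and 3 had enough reads to test, of which Gh (log2FC -3.65 ± 1.03, edgeR adjusted p = 0.0114) and Tshb (-1.23 ± 0.33, 0.00854) were lower at 24m. The summed level of the list was 1.02 to 4.7 CPM at 6m and 0.321 to 0.636 CPM at 24m, and Fshb had no reads in any library. The part of pituitary RNA in the Pomc values was not tested.

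Other neuropeptides were lower in aged brains as well. Of 10 further hypothalamic peptides 8 were tested and 7 were called lower, against 18.3% of all genes, with a median log2FC of -1.27. Npvf, the precursor of RFamide-related peptides, had the largest fall (log2FC -2.37 ± 0.46, edgeR adjusted p = 0.00162, 18 to 43 reads per library at 6m and 2 to 18 at 24m), and Tac2, the neurokinin B precursor, the smallest of those called (-0.96 ± 0.15, adjusted p = 0.00052). Gnrh1, which drives the gonadal axis, had a log2FC of -1.59, Ghrh one of -1.22 and Crh, the releasing hormone of the stress axis, one of -1.25, all called. Of 9 neuropeptides made across the forebrain 5 were called lower and none higher, against 18.3% and 25.3% of all genes. The median was -0.64, and the called genes ran from Cck (-1.24 ± 0.11, adjusted p = 4.89e-05) to Penk (-0.64 ± 0.11, adjusted p = 0.000724). Vip (0.11) and Pdyn (0.23) had positive values and were not called. With library totals as the only scaling, 3 of the 9 were called lower, where 10.4% of all genes were. The median of this forebrain list was closer to 0 than the median of the 10 peptides, and the difference between the lists was not tested. With the length trend removed, 3 genes of each of these lists were called lower, where 17.2% of all genes were. Among 6 genes that process prohormones, Pcsk1n, which encodes the inhibitor proSAAS, was lower (-1.06 ± 0.15, adjusted p = 0.0003). The convertases Pcsk1 and Pcsk2, the carboxypeptidase Cpe and the amidating enzyme Pam were not called. Scg5, which encodes a chaperone of Pcsk2, had an adjusted p of 0.000875 with no overlap between ages, but its log2FC of -0.51 ± 0.09 was short of the fold-change threshold.

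Receptors of the 10 peptides were called higher more often than lower. Of 18 receptor genes 15 were tested, 7 were called higher and 1 lower, against 25.3% and 18.3% of all genes, with a median log2FC of 0.52. The 7 were Npy2r (1.65 ± 0.28, edgeR adjusted p = 0.000864), Trhr (1.57 ± 0.34), Hcrtr2 (1.22 ± 0.29), Galr1 (1.01 ± 0.31), the oxytocin receptor Oxtr (0.98 ± 0.28), Npy1r (0.84 ± 0.24) and Galr3 (0.71 ± 0.16). Npy2r had 39, 67, 59 and 39 reads at 6m and 152, 187, 225 and 287 at 24m, so the ages were apart. Reads per 6m library were fewer for Trhr (5 to 14), Galr1 (8 to 13) and Hcrtr2 (12 to 20). The ages overlapped for Oxtr and Npy1r. The receptor that fell was Hcrtr1, one of the orexin receptors (-0.81 ± 0.12, adjusted p = 0.000457), with 6.59 to 7.67 CPM at 6m and 3.49 to 4.52 CPM at 24m. The other orexin receptor, Hcrtr2, was thus called in the opposite direction. Not called were the melanocortin receptors Mc3r and Mc4r (adjusted p = 0.594 and 0.0721), Npy5r, Mchr1, Trhr2, Galr2 and the vasopressin receptor Avpr1a, and Npy4r, Avpr1b and Avpr2 had too few reads.

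Of 6 accessory proteins and peptidases 3 were called higher and none lower, against 25.3% and 18.3% of all genes, with a median log2FC of 1.11. The 3 were Lnpep, the aminopeptidase that degrades oxytocin and vasopressin (3.05 ± 0.48, edgeR adjusted p = 0.000561), Atrn (2.66 ± 0.36) and Atrnl1 (1.94 ± 0.30). With the length trend or the GC trend removed, 1 of the 6 was called lower. Of 6 receptors of circulating hormones that act on these neurons Glp1r (1.83 ± 0.32, adjusted p = 0.00105), Calcr (1.40 ± 0.37) and Insr (1.37 ± 0.28) were higher. Lepr, Ghsr and Gipr were not called. Of all genes tested, 25.3% were called higher.

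**Figure D5:**
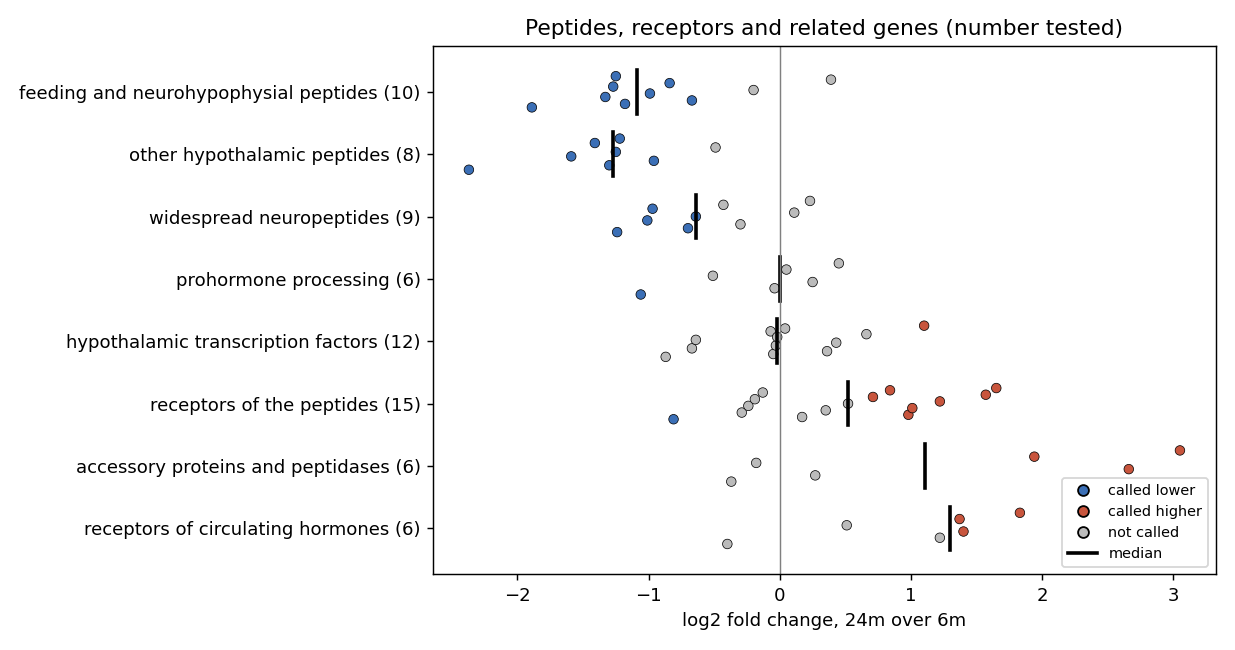
Log2 fold change, 24m over 6m, of each tested gene in 8 lists, with the number tested in parentheses, genes called lower in blue and higher in red, and the median as a bar. Peptide precursors lie to the left, with medians of -1.09, -1.27 and -0.64, and receptors and accessory proteins lie mostly to the right.

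Depth and cell markers of the whole series bear on these values. Totals ran from 63460940 to 103462414 counts per library, with 24m replicate 1 the deepest, and mitochondrial genes took 5.26 to 6.52% of counts at 6m and 3.18 to 3.69% at 24m. Among markers of neurons, Elavl4 (-0.72) and Tubb3 (-0.63) were called lower and Syn1 (0.89) higher of 5 genes, but none was called lower with library totals as the only scaling. Among 9 markers of astrocytes, microglia and oligodendrocytes, 5 were called higher, from Aqp4 (1.92) to P2ry12 (0.75), and none lower. Across all genes tested, 25.3% were called higher and 18.3% lower. The summed level of the astrocyte list was 179 to 200 CPM at 6m and 202 to 213 CPM at 24m, that of the microglia list was 99.6 to 106 CPM and 132 to 153 CPM, and no marker of these lists was at 0. Of cerebellar markers, 3 of 4 genes (Cbln3 1.69 to Car8 0.62) were called higher and none lower, while Pcp2 was at -0.53 (edgeR adjusted p = 0.166). With the GC trend removed, 1 of the 4 was called higher. Without 24m replicate 1, 2 were called higher and 1 lower. Of 3 endothelial genes Cldn5 (-1.06) and Flt1 (1.24) were called. Of 3 choroid plexus genes Kl (1.53) was called higher, but the median of the list was -0.79. Ttr (-0.79, edgeR adjusted p = 0.0598) and Folr1 (-0.85, adjusted p = 0.0524) were lower without being called. With the GC trend removed, 2 genes of the choroid plexus list were called lower. The part of these shifts in the peptide values was not tested.

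Promoter sequence just before the start was compared because most of the 10 genes moved in one direction. The 100 bases before the annotated start were taken from RefSeq (GRCm38.p6, not the build of the gene positions above) for the 9 members in that set, all but Agrp. The letters ATAAA, the downstream portion of a TATA box, were searched on the coding strand and occurred in 6 of 9, against 11% of 32851 promoters. They are in capitals in the 6 cores printed here, each read on the strand of its gene (plus for Pomc, Pmch, Npy and Oxt, minus for Hcrt and Avp).
Pomc, chr12:3954845-3954944: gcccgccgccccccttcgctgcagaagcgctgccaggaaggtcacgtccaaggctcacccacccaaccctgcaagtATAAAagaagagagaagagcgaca
Hcrt, chr11:100762932-100763031: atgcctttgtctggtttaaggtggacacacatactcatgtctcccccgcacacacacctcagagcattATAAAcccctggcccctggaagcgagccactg
Pmch, chr10:88090972-88091071: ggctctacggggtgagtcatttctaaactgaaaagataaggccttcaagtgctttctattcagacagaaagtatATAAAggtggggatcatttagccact
Npy, chr6:49822610-49822709: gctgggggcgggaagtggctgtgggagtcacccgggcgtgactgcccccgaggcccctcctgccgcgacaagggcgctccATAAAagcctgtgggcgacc
Oxt, chr2:130576069-130576168: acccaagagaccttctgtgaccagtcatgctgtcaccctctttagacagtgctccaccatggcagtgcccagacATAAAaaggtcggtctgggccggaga
Avp, chr2:130582589-130582688: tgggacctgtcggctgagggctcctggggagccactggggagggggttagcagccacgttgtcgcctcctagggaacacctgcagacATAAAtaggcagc
The first base of the match lay 13 to 32 bases before the start in these genes. The letters TATAAA, which contain ATAAA, were in Pomc, Hcrt and Pmch, 3 of 9 against 3.8%. Read on both strands, TGACC was in Oxt, Trh, Pomc, Cartpt and Gal, 5 of 9 against 16.1%, while TGACGTCA (1.15% of promoters) and CCAAT (18.9%) were in none of the 9. The called genes Cartpt, Trh and Gal had no ATAAA in this window, and Avp, which was not called, had it. The Trh window held TATAAG, which this search does not count, and in Npy, Oxt and Avp the base before ATAAA was C. These matches describe the sequence and were not tested against the change with age.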

How the data were processed

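Adapter trimming by the authors used Trim Galore. They aligned paired-end reads to GRCm39 with HISAT2 (version 2.1.0 in the submitters' processing notes) and deposited whole-number counts per Ensembl gene, made with featureCounts. The handling of strand and of reads with several matches is not given in the sources used here. Counts of 8 libraries, 4 of 6m and 4 of 24m, were read as deposited, and symbols were matched for 22281 of 22430 identifiers in GENCODE annotation of GRCm39. Genes above 5 counts in 4 or more libraries were fitted with edgeR 4.0.16 in R 4.3.3 (TMM, quasi-likelihood test on age, Benjamini-Hochberg adjustment over all 16730 genes). A gene was called at an adjusted p of at most 0.05 and |log2FC| of at least 0.58. The standard error is the log2FC over the square root of F. CPM values use TMM-scaled totals. Alternatives were other scalings, DESeq2 1.42.0, limma-voom 3.58.1, other filters, a replicate block, smoothed trends over length or GC content (span 0.3) and leaving out each library. The fit was tested on simulated data. The members and lists were chosen with earlier results of these data known. Named genes are the members, their receptors, the extremes among called genes of each other list, and the 3 genes most like each member, with a few others named after their values were seen. The lists and their counts are given with the results, apart from the cortical and striatal markers, which are not reported here.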

Additional observations from a re-analysis of the deposited data

Results flagged for a closer look

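The log2 ratio of Hcrt to Pmch in 6m replicate 4 was 0.24, while the other 3 libraries of that age lay between -0.32 and -0.30. The gap made up 0.967 of the range of the group, above Dixon's 95% critical value for 4 samples. Of 30 groups of 4 values examined (10 genes and 5 ratios at each age) it was the 1 that passed, and chance passes about 1 group in 20. In that library Hcrt stood at 36.3 CPM, above the 22.7 to 26.5 CPM of the others, and Pmch at 30.7 CPM was within their range.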

How the results depend on the processing

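The number of the 10 peptides called lower was 8 in the fit reported. It was 2 with the length trend removed and 1 (Cartpt) with length and GC trends removed together, where 17.2% and 17.4% of all genes were called lower. It was between 6 and 8 under every other setting tried, including each left-out library, with 10.4 to 23.3% of all genes called lower, and 29.9% where no fold-change threshold was set. Replicate numbers are shared between ages in the labels, but deviations of same-numbered libraries had correlations of 0.37, 0.25, 0.17 and -0.51, so the numbers were not taken to pair animals. With the replicate block 8 peptides were called lower, and a sign-flip test of same-numbered differences left the ratios of Agrp to Pomc (1.01), Pomc to Cartpt (0.93) and Oxt to Avp (-1.06) at an exact p of 0.125, the smallest it can give. Over left-out libraries Agrp to Pomc ranged from 0.86 to 1.16 (exact p up to 0.0857), Pomc to Cartpt from 0.77 to 1.06 (exact p up to 0.0571) and Oxt to Avp from -1.17 to -0.95 (exact p = 0.0286 in each). Agrp had no value under a filter of at least 1 CPM in 4 libraries. Few reads limit the precision of Agrp and of the scarce receptors and transcription factors, and 4 animals per age limit all values.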
